A study of Mus musculus with 69 samples.

Results

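The proteasome genes were taken as every gene whose symbol begins with Psma, Psmb, Psmc, Psmd, Psme, Psmf or Psmg followed by a digit, with pseudogenes left out. This gave 50 of the 52636 genes in the deposited count table, and 45 of them held enough counts to be tested among 14016 genes. They were read in RNA sequencing libraries of the nucleus accumbens of male mice and in lists of H3K79me2 peaks from the same tissue. H3K79me2 is histone H3 dimethylated at lysine 79, the mark written by the enzyme Dot1l, and the series addresses the mark after early life stress (ELS) in medium spiny neurons. Each of the 4 RNA groups held 8 libraries. The first had standard rearing and GFP, called Standard GFP here, and the second had ELS and GFP, called ELS GFP. The third had standard rearing and Dot1l overexpression, and the fourth had ELS and a label of Dot1l knockdown. GFP is the fluorescent protein that served as the control for both Dot1l manipulations. Age, strain, the vector and the promoter that drove it were not given in the sources used here. The labels name the tissue and no sorting step, so the RNA came from all cell types of the nucleus accumbens. The labels do not say whether libraries of a group came from separate animals, so all p-values measure the spread between these libraries, which may be technical.

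The proteasome is the protease complex that degrades proteins tagged with ubiquitin in the cytosol and nucleus of all cells. Its core particle is a barrel of alpha rings (Psma genes) around beta rings (Psmb genes) that hold the cutting sites, and its regulatory particle (Psmc and most Psmd genes) binds ubiquitin, removes it, and unfolds and feeds the substrate into the barrel. In neurons it takes part in the turnover of synaptic proteins, and because every cell needs it, its genes often serve as a housekeeping set.

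The 50 genes comprised 8 alpha subunits, 7 constitutive beta subunits, 4 beta subunits of immune or thymic proteasomes, 6 ATPases and 3 non-ATPase subunits of the base, 8 lid subunits, 3 chaperones that assemble the base, 6 genes of other regulators of the core, and 4 chaperones that assemble the core. The remaining gene, Psmc3ip, matches by symbol alone: it encodes a partner protein of meiotic recombination and is not a subunit. Psmb10, an immunoproteasome subunit, and Psme2b, a copy of Psme2, were listed at 0 in all 32 libraries. Gfap, the astrocyte filament gene, was listed at 0 in all 32 as well, although 8 other astrocyte markers were tested, so a 0 in this table cannot be read as absent RNA. The other untested genes were Psmb11, the thymic beta subunit, with 7 counts over all libraries, Psmg3 with 14 and Psmc3ip with 137.

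The sequence just upstream of the start is shown for 9 members. For the first and second motif shown, the shares of genes with a match were unlike in the regulatory and the core particle. For the last motif they were alike. Each line gives the 130 bases before the RefSeq start on mouse build GRCm38.p6, the assembly of mm10, 5′ to 3′ along the gene's strand. None of these stretches lay under an H3K79me2 peak of either list. Capitals mark a complete match, on either strand, to the motif named with each set. In 5 regulatory particle genes the capitals are the ETS letters CCGGAAG, or CTTCCGG where the match is on the other strand, an ETS site being the kind of sequence bound by transcription factors of the ETS family.
Psmc1, an ATPase of the base, chr12:100110072-100110201, + strand: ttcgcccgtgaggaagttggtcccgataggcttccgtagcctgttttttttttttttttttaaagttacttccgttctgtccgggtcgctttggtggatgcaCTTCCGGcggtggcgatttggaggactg
Psmd2, a scaffold of the base, chr16:20651522-20651651, + strand: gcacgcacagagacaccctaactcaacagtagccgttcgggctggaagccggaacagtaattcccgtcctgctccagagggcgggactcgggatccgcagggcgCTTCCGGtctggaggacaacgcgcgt
Psmd6, a lid subunit, chr14:14120946-14121075, - strand: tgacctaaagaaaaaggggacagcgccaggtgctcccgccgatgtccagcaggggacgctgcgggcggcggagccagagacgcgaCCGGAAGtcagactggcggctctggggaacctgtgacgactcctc
Psmd11, a lid subunit, chr11:80428485-80428614, + strand: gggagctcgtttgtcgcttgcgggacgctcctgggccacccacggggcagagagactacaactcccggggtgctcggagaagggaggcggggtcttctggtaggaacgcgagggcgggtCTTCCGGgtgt
Psmd12, a lid subunit, chr11:107479398-107479527, + strand: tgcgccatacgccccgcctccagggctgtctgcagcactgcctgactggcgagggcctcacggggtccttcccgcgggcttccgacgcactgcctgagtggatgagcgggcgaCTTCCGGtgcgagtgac

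The match began 28 bases before the start in Psmc1, 26 in Psmd2, 45 in Psmd6, 11 in Psmd11 and 17 in Psmd12. In 2 core particle genes the capitals are the NF-Y box CCAAT, or ATTGG on the other strand, NF-Y being a factor that binds such boxes in many promoters.
Psma1, an alpha subunit, chr7:114276117-114276246, - strand: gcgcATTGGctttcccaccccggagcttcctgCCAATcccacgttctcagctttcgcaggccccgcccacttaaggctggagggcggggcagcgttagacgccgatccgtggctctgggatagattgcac
Psmb3, a constitutive beta subunit, chr11:97703304-97703433, + strand: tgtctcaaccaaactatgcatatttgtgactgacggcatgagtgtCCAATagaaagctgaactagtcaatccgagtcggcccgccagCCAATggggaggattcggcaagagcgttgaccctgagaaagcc

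In the last pair the capitals are the core letters of the antioxidant response element, TGACNNNGC, the kind of sequence through which Nfe2l1 is known to raise proteasome genes when proteasome activity falls. Both genes encode catalytic beta subunits. The motif was not particular to the core: the regulatory particle genes Psmc6 and Psmd12 had a match farther upstream.
Psmb5, chr14:54617996-54618125, - strand: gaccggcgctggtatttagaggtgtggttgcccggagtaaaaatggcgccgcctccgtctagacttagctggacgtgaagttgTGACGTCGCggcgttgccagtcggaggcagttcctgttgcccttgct
Psmb6, chr11:70525227-70525356, + strand: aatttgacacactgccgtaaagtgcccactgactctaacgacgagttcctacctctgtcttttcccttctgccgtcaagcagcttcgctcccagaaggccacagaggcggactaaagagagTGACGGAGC

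Windows of 300 bases, from 250 before to 50 after the start, were found in the RefSeq table for 42 of the 50 genes, as 45 windows, and all letters were searched on both strands. The ETS letters were present in 9 of 14 regulatory particle genes of the base and lid (64.3%) and in 1 of 11 constitutive core genes (9.09%, Psma6), against 17.8% of the 10551 tested genes with a window and 9.93% of all 27025 genes in the RefSeq table. CCAAT was present in 6 of 11 core genes (54.5%) and 4 of 14 regulatory particle genes (28.6%), against 42.3% of tested genes. TGACNNNGC was present in 2 genes of each particle, 18.2% of core genes and 14.3% of regulatory particle genes, against 16.5% of tested genes. The YY1 letters AAGATGG, known for binding the factor YY1, were present in 8 of 42 members (19%) against 8.11% of tested genes. No match to one motif overlapped a match to another in the members' windows. The median GC content of the windows was 55.8% in core genes, 60.5% in regulatory particle genes and 60.7% in tested genes. A match is a match of letters and no proof of a bound factor, and these shares carry no test.

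**Figure D1:**
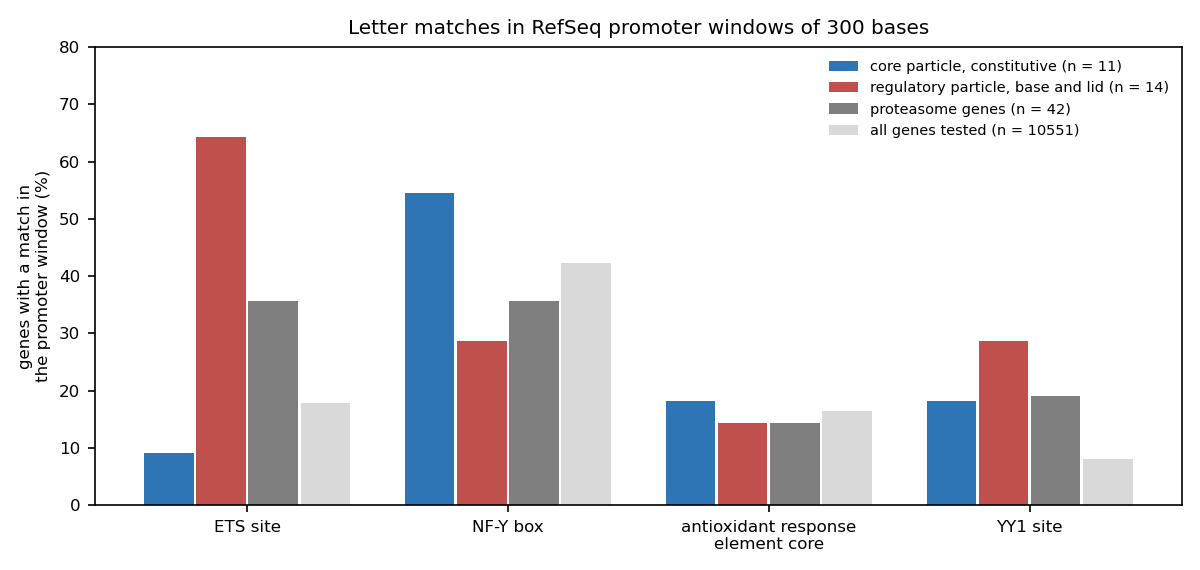
Share of genes (percent, y axis) whose 300-base promoter window held each motif, for the constitutive core genes, the regulatory particle genes of base and lid, all proteasome genes and all tested genes with a window (bars). The ETS letters stand at 64.3% in the regulatory particle and 9.09% in the core.

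The libraries differed widely in depth. Totals ran from 0.314 to 9.8 M counts in Standard GFP, 1.76 to 11.1 in ELS GFP, 2.48 to 7.88 in Dot1l overexpression and 0.462 to 8.8 in the group labelled knockdown, and 4 libraries were under 1 M. The proteasome genes took 116964 of the 172.8 M counts. Dot1l itself was at 33.9 ± 10.8 CPM (counts-per-million values; SD, n = 8) in Standard GFP, 35.6 ± 11.4 in ELS GFP, 43.1 ± 19 in overexpression and 43.1 ± 15.2 in the libraries labelled knockdown. Dot1l was thus not lower in the libraries labelled knockdown than in their ELS GFP controls, the log2 difference being 0.28 ± 0.27 (SE, with adjusted p = 0.985, edgeR quasi-likelihood test with Benjamini-Hochberg adjustment), and no direction below can be tied to a loss of Dot1l RNA. In overexpression it was 0.33 ± 0.27 (adjusted p = 0.741, same test). The sources used here do not give the construct or the part of Dot1l it carries or targets, so counts over the gene check the labels only where they include that part. In 4 libraries single genes often stood far above the group: Standard GFP replicates 5 and 6, ELS GFP replicate 2 and overexpression replicate 1 each held over 50% of their group's summed CPM in 335 to 501 tested genes. Markers of striatal medium spiny neurons were present in every library, with 9 of 10 tested and summed levels from 644 to 2820 CPM.

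Proteasome RNA as a whole differed little between the 4 groups. The summed level of all members was 712 ± 182 CPM in Standard GFP, 707 ± 129 in ELS GFP, 715 ± 160 in Dot1l overexpression and 688 ± 36.8 in the libraries labelled knockdown (SD, n = 8 each), so the group means differed by less than the SD within any group. All alpha and beta subunit genes of the core were then summed, Psma8 and the immune and thymic beta subunits included. They came to 160 ± 20.6, 176 ± 43.7, 154 ± 19 and 166 ± 21.3 CPM in the same order. The ELS GFP value includes replicate 2 at 277.7 CPM, of which Psmb9, an immune beta subunit, made up 128. The base and lid of the regulatory particle summed to 357 ± 77.9, 363 ± 94.7, 372 ± 102 and 337 ± 23.6 CPM. CPM does not correct for transcript length, so levels are compared between groups and not between genes. In bulk tissue, fewer cells of a type and less RNA per cell cannot be told apart.

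No proteasome gene passed the threshold of adjusted p under 0.05 in any of the 3 comparisons by edgeR's quasi-likelihood test. The background was the same: 0% of the 14016 tested genes passed in ELS GFP against Standard GFP, 0% in overexpression against Standard GFP and 0% in the libraries labelled knockdown against ELS GFP. The first and second comparisons share the Standard GFP libraries, and the first and the third share the ELS GFP libraries, so their values are set side by side and not counted against each other. By limma 0 members passed in each comparison, as did 0% of the 14016 genes. By DESeq2 1 member, Psmb9, passed in ELS GFP against Standard GFP and 0 in the other comparisons. Of all genes with an adjusted p in DESeq2, 75 of 12492 passed after ELS (0.6%), 37 of 14232 in overexpression (0.26%) and 1 of 31051 in the libraries labelled knockdown (0.00322%). At an unadjusted edgeR p under 0.05 there were 3 members after ELS (2 higher, 1 lower), 2 in overexpression (1 higher, 1 lower) and 2 in the libraries labelled knockdown (1 higher, 1 lower). The corresponding shares of all tested genes were 11.7% after ELS (4% higher, 7.73% lower), 10.9% in overexpression (4.59% higher, 6.28% lower) and 6.18% in the libraries labelled knockdown (2.23% higher, 3.95% lower), so the members' 6.67%, 4.44% and 4.44% lay below the background in each. DESeq2 gave 4, 2 and 1 members at an unadjusted p under 0.05, against 6.44%, 5.69% and 4.66% of all 31051 genes with a p. Out of 50 members at most, the 4 after ELS lay near that background. There 1 gene decides on which side of it they fall, so nothing is read from the count. limma gave 1, 2 and 2 members, against 6.52%, 4.66% and 5.5% of the 14016 genes. No tested member had 8 libraries of one group all above or all below the 8 of the other.

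After ELS 25 tested members were higher and 20 lower, and their median log2 fold change was 0.108 against -0.013 for all tested genes. In overexpression 26 were higher and 19 lower, with medians of 0.1 and 0.018, and in the libraries labelled knockdown 23 were higher and 22 lower, with medians of 0.013 and 0.002. A log2 fold change within 0.5 of no change was found for 68.9%, 71.1% and 84.4% of members in the 3 comparisons, and for 66.7%, 67.9% and 74.7% of all tested genes. The cytosolic ribosomal protein genes, another housekeeping set with 73 members tested, had medians of 0.06, 0.24 and 0.121. The 74 respiratory chain genes had medians of 0.112, 0.098 and -0.047.

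No cell type marker passed the edgeR threshold in any comparison, and the directions here are of values alone. Of all 14016 tested genes, 7173 were lower after ELS, 6804 in overexpression and 6978 in the libraries labelled knockdown. The markers were not read with single libraries left out. After ELS 8 of 8 tested astrocyte markers were lower, as were 10 of 10 myelin markers, 9 of 9 medium spiny neuron markers and 8 of 9 microglial markers, with medians of -0.656, -0.594, -0.634 and -0.652 on the log2 scale, while 8 of 10 endothelial markers were higher, with a median of 0.22. In overexpression 10 of 10 myelin markers were lower (median -0.505), as were 8 of 9 medium spiny neuron (-0.262), 6 of 8 astrocyte (-0.12), 5 of 9 microglial (-0.206) and 6 of 10 endothelial markers (-0.041). In the libraries labelled knockdown 9 of 9 microglial markers were higher (median 0.456) and 9 of 10 endothelial markers lower (-0.366). There 7 of 9 medium spiny neuron, 5 of 8 astrocyte and 6 of 10 myelin markers were higher, with medians of 0.069, 0.123 and 0.028. The summed astrocyte markers ran from 1710 to 3180 CPM in Standard GFP and from 1100 to 2590 in ELS GFP, the myelin markers from 561 to 1040 and from 400 to 991, and the medium spiny neuron markers from 691 to 2770 and from 713 to 1540. The summed microglial markers had medians of 950 CPM in Standard GFP and 790 in ELS GFP, with Standard GFP replicates 5 and 6 at 2790 and 2850. The endothelial markers ran from 85.9 to 183 CPM in Standard GFP, 99.5 to 217 in ELS GFP, 81.5 to 213 in overexpression and 76.1 to 162 in the libraries labelled knockdown. Their part in the values of the proteasome genes was not tested.

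**Figure D2:**
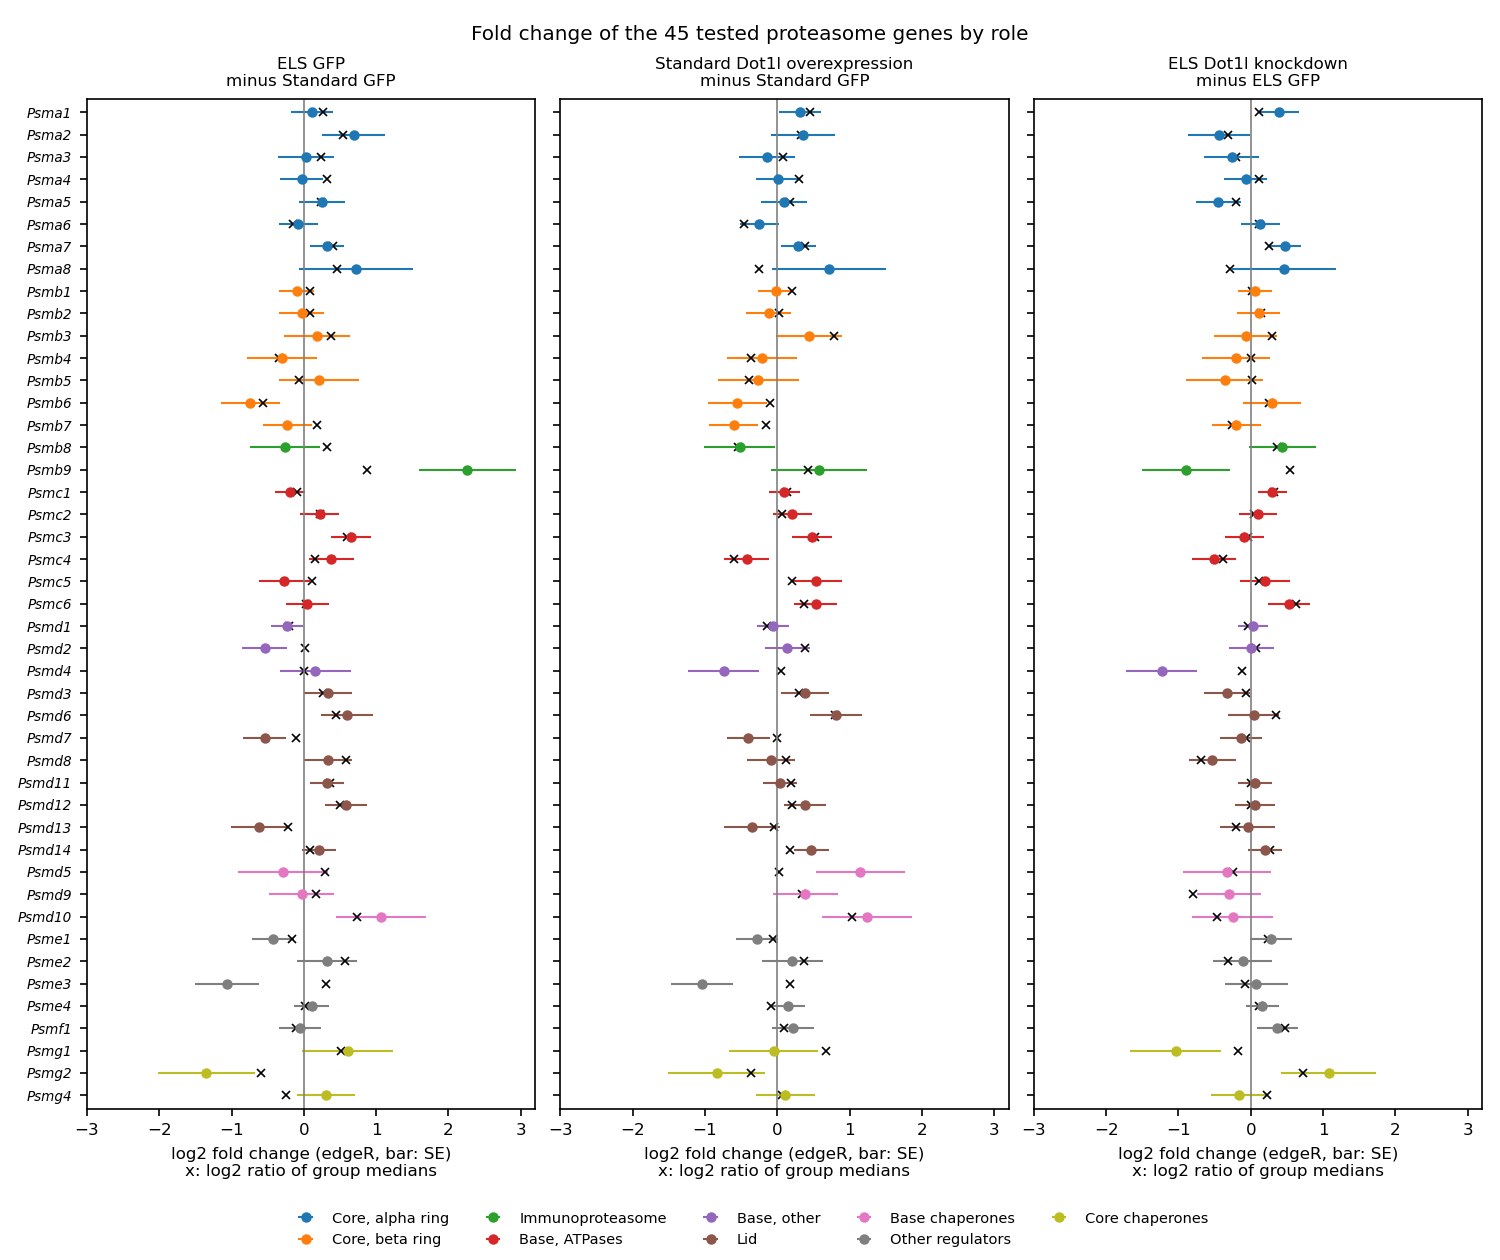
Log2 fold change with its standard error (points and bars, x axis) of each of the 45 tested proteasome genes, grouped by role (y axis), with the log2 ratio of the group medians as a cross, in ELS GFP against Standard GFP, Dot1l overexpression against Standard GFP and the libraries labelled knockdown against ELS GFP. Most lie within 0.5 of no change, and the widest is Psmb9 after ELS at 2.26.

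By role, the 8 alpha subunits had median log2 fold changes of 0.179 after ELS, 0.188 in overexpression and 0.032 in the libraries labelled knockdown, with 6, 6 and 4 of 8 higher. The 7 constitutive beta subunits had medians of -0.105, -0.206 and -0.067, with 5, 6 and 4 of 7 lower. The 6 ATPases of the base had medians of 0.138, 0.346 and 0.15, with 4, 5 and 4 higher, and the 8 lid subunits had medians of 0.322, 0.21 and 0.002, with 6, 5 and 4 higher. The constitutive core as one set of 15, with Psma8 of the testis proteasome counted in, had medians of 0.035, -0.022 and -0.067. The base and lid as one set of 17 had medians of 0.206, 0.137 and 0.029. The 3 base chaperones had positive values in overexpression, with a median of 1.147 and adjusted p of 0.469 or more (edgeR). That median is the value of Psmd5, which 1 library carries: without overexpression replicate 1, 2 of the 3 were higher, Psmd5 stood at -0.52 and the median was 0.454. In the libraries labelled knockdown all 3 were lower, with a median of -0.298. Other medians also depended on single libraries: with any 1 left out, a step chosen after the data were seen, the ATPases ran from 0.121 to 0.398 and the lid from 0.077 to 0.281 in overexpression, and after ELS the lid ran from 0.219 to 0.375 and the alpha subunits from 0.053 to 0.272. None of these role sets held a gene past the threshold in edgeR.

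Among the alpha subunits, Psma1 was at 10.1 ± 3.8 CPM in Standard GFP, 11.1 ± 3.7 in ELS GFP, 12.8 ± 2.94 in overexpression and 14.4 ± 6.2 in the libraries labelled knockdown. Its log2 fold change in the last comparison was 0.39 ± 0.28 (adjusted p = 0.962, edgeR), and 0.21 without replicate 3 of the libraries labelled knockdown. Psma7, also a constitutive alpha subunit, had the smallest p of the members that were higher in the libraries labelled knockdown. It ran from 11.4 to 32.2 CPM there (median 15.3) and from 10.5 to 14.3 in ELS GFP (median 12.9), a log2 fold change of 0.47 ± 0.23 (adjusted p = 0.804, edgeR) that was 0.28 without replicate 3 of the libraries labelled knockdown. The ranges overlapped, and 6 of 8 libraries labelled knockdown lay above the ELS GFP median. Psma2 was higher after ELS by 0.69 ± 0.44 (adjusted p = 0.582, edgeR), at 12 ± 6.08 against 7.13 ± 2.92 CPM, and by 0.45 without ELS GFP replicate 7. Psma5 was lower in the libraries labelled knockdown, with a log2 fold change of -0.45 ± 0.31 (adjusted p = 0.957, edgeR), and -0.26 without ELS GFP replicate 3. Psma8, the alpha subunit of the testis proteasome, was near the limit of detection at 0.909 ± 0.696 CPM in Standard GFP.

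Of the constitutive beta subunits, Psmb5, which carries the chymotrypsin-like site, was low and level, at 3.06 ± 2.34, 3.49 ± 1.74, 2.5 ± 1.27 and 2.81 ± 1.54 CPM in the order of groups above. Psmb6, which carries the caspase-like site, was lower after ELS, at 6.48 ± 3.45 against 11.1 ± 7.2 CPM and a log2 value of -0.74 ± 0.41 (adjusted p = 0.499, edgeR), and -0.55 ± 0.41 in overexpression (adjusted p = 0.704). Without Standard GFP replicate 5 these were -0.49 and -0.3. Psmb7, which carries the trypsin-like site, was at 12.3 ± 5.13 CPM in overexpression and 18.2 ± 16.5 in Standard GFP, with a log2 fold change of -0.6 ± 0.34 (adjusted p = 0.55, edgeR). Its Standard GFP mean rested on replicate 6 at 58.1 CPM, with the next library at 16.6. Without that library the log2 fold change was -0.04.

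The immunoproteasome subunits replace catalytic beta subunits in immune cells and after interferon, and Psmb9, one of them, had the largest change of any member. In Standard GFP it ran from 0 to 8.77 CPM (median 3.66), in ELS GFP from 2.01 to 128 (median 6.75), in overexpression from 1.98 to 14.9 (median 4.88) and in the libraries labelled knockdown from 3.04 to 26 (median 9.81). The groups overlapped, but 7 of 8 ELS GFP libraries lay above the Standard GFP median. ELS GFP replicate 2 alone, at 128 CPM and 198 counts, held 75% of its group's CPM, and the next library was at 9.56.

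The log2 fold change of Psmb9 after ELS was 2.26 ± 0.67 in edgeR (p = 0.00194, adjusted p = 0.135 with Benjamini-Hochberg) and 2.33 in DESeq2 (adjusted p = 0.0459), with adjusted p from 0.0459 to 1 over all alternatives. Without ELS GFP replicate 2 the edgeR value was 0.53, and the log2 ratio of the group medians was 0.88. Of the 10 microglial markers 9 were tested, and their summed level ran from 428 to 2850 CPM in Standard GFP, 613 to 1260 in ELS GFP, 648 to 1950 in overexpression and 430 to 1760 in the libraries labelled knockdown. ELS GFP replicate 2 had the highest of its group, 1260 CPM. This library was also the highest of its group for astrocyte (2590 CPM), myelin (991) and medium spiny neuron markers (1540). For endothelial markers it was not, at 196 CPM against 217 in replicate 6. Standard GFP replicates 5 and 6 had microglial sums of 2790 and 2850 CPM, with Psmb9 at 0 and 2.66. The part of cell types in the Psmb9 value was not tested. In the libraries labelled knockdown against ELS GFP, Psmb9 had a log2 fold change of -0.89 ± 0.61 (adjusted p = 0.955, edgeR), which turned to 0.83 without ELS GFP replicate 2. Psmb8, the immune counterpart of Psmb5, was at 3.6 ± 3, 3.26 ± 1.09, 2.69 ± 2.11 and 4.32 ± 2.71 CPM in the 4 groups, with log2 fold changes of -0.26 ± 0.48, -0.52 ± 0.49 and 0.44 ± 0.47.

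**Figure D3:**
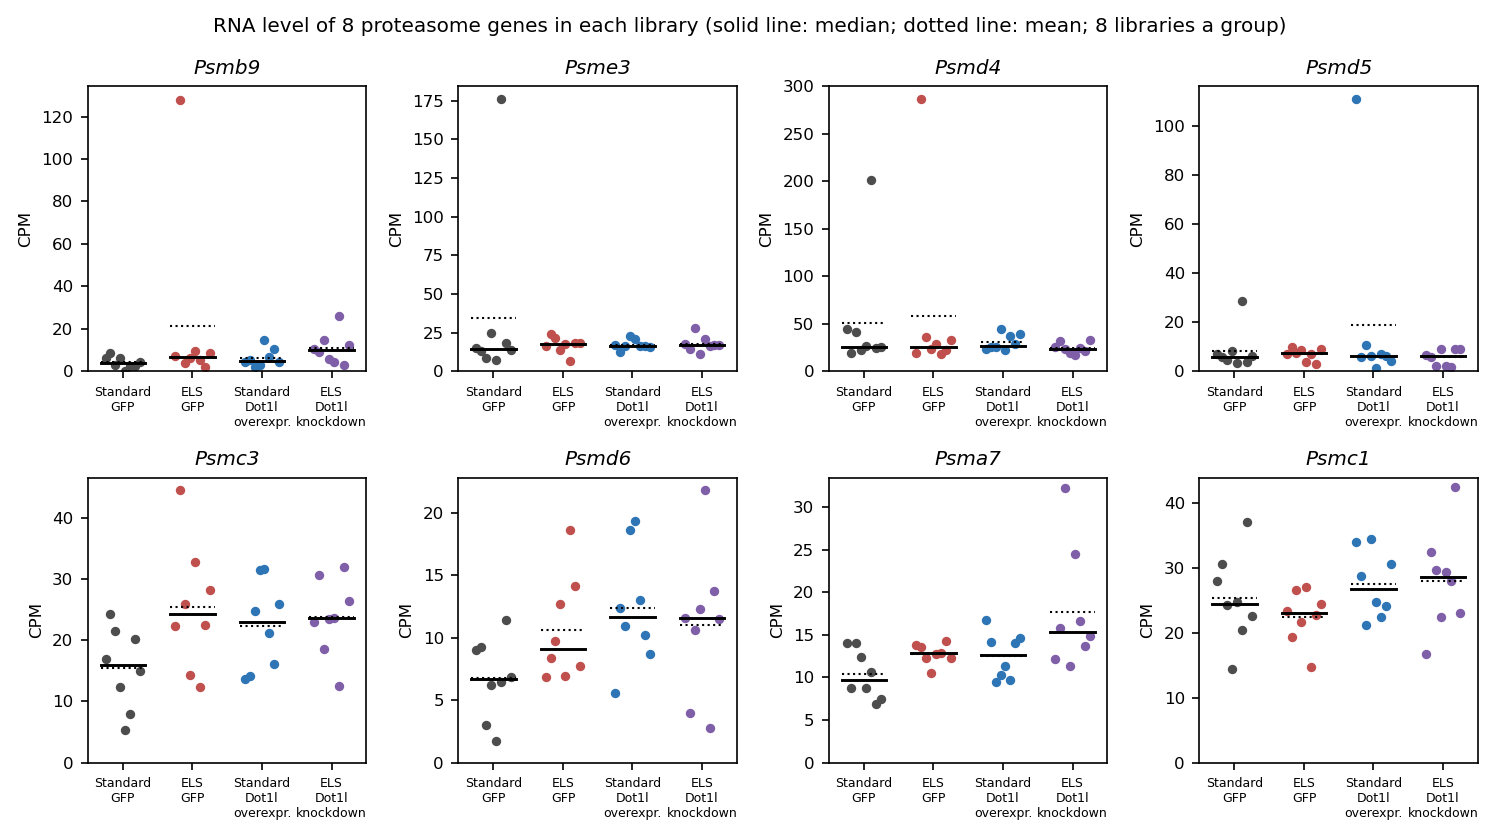
CPM (y axis, from 0) of the 8 libraries of each group (points) for Psmb9, Psme3, Psmd4, Psmd5, Psmc3, Psmd6, Psma7 and Psmc1, with the group median as a solid and the mean as a dotted line. Psmb9 in ELS GFP, Psme3 in Standard GFP, Psmd4 in Standard GFP and ELS GFP, and Psmd5 in overexpression each show 1 library far above the other 7.

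The ATPases of the base unfold the substrate and open the core. Psmc3 ran from 5.28 to 24.2 CPM in Standard GFP (median 16), from 12.3 to 44.6 in ELS GFP (median 24.2), from 13.6 to 31.6 in overexpression (median 22.9) and from 12.6 to 31.9 in the libraries labelled knockdown (median 23.6). It had a log2 fold change of 0.65 ± 0.28 after ELS (adjusted p = 0.324, edgeR), with 6 of 8 ELS libraries above the Standard median, and 0.48 ± 0.28 in overexpression (adjusted p = 0.561). Standard GFP is the low group in both comparisons, and these share it. Without the 4 libraries that often stood apart its value after ELS was 0.26, a comparison chosen after the data were seen.

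Psmc6 ran from 3.52 to 23.9 CPM in Standard GFP (median 14.6), from 7.16 to 23.5 in ELS GFP (median 15), from 14.8 to 43.4 in overexpression (median 18.8) and from 14 to 34.5 in the libraries labelled knockdown (median 23.1). It was higher by a log2 value of 0.53 ± 0.3 in overexpression (adjusted p = 0.544, edgeR) and 0.53 ± 0.29 in the libraries labelled knockdown (adjusted p = 0.874), against different controls. Without overexpression replicate 1, at 43.4 CPM, the first value was 0.31. Psmc4 had 1 of 8 libraries labelled knockdown above the ELS GFP median of 13.2 CPM, with a log2 fold change of -0.51 ± 0.3 (adjusted p = 0.92, edgeR) that was -0.2 without ELS GFP replicate 2, and -0.42 ± 0.31 in overexpression (adjusted p = 0.689). Psmc1 was the steadiest member of all, at 25.3 ± 6.79, 22.5 ± 4, 27.5 ± 5.14 and 28 ± 7.73 CPM. Its log2 fold change in the libraries labelled knockdown was 0.3 ± 0.2 in edgeR (adjusted p = 0.953) and -0.01 in limma.

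The non-ATPase subunits of the base scaffold the particle and bind ubiquitin. Psmd1, a scaffold, was at 31.8 ± 5.87, 27.3 ± 3.85, 30.8 ± 9.47 and 28 ± 11.7 CPM. Psmd2, the other scaffold, was at 27.3 ± 4.48 CPM in ELS GFP and 39.3 ± 29 in Standard GFP, a log2 value of -0.54 ± 0.31 (adjusted p = 0.516, edgeR) that was -0.13 without Standard GFP replicate 6, whose level was 107 CPM.

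Psmd4, a ubiquitin receptor, had medians of 25.9, 25.9, 26.8 and 23.9 CPM in the 4 groups and maxima of 201, 287, 44.1 and 32.5. The medians of the 4 groups were close together, and the high values were 1 library each, Standard GFP replicate 6 and ELS GFP replicate 2. Its log2 fold change was -0.74 ± 0.49 in overexpression (adjusted p = 0.64, edgeR), 0.07 without Standard GFP replicate 6. In the libraries labelled knockdown it was -1.23 ± 0.49 (p = 0.0174, adjusted p = 0.638, edgeR), the smallest p of any member there, and -0.08 without ELS GFP replicate 2.

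In the lid, Psmd6 had the smallest p of the members that were higher in overexpression. It ran from 1.76 to 11.4 CPM in Standard GFP (median 6.66), from 6.86 to 18.6 in ELS GFP (median 9.07), from 5.57 to 19.3 in overexpression (median 11.6) and from 2.81 to 21.8 in the libraries labelled knockdown (median 11.5). The log2 fold change was 0.81 ± 0.36 in overexpression (p = 0.0301, adjusted p = 0.382, edgeR), with 7 of 8 libraries above the Standard GFP median, and between 0.69 and 0.98 with any 1 library left out. After ELS it was 0.6 ± 0.36 (adjusted p = 0.546, edgeR), and 0.19 in limma. Psmd12 was also higher after ELS, with 8.62 to 19.3 CPM (median 13.7) against 5.16 to 15.9 in Standard GFP (median 9.72), a log2 value of 0.58 ± 0.29 (adjusted p = 0.427, edgeR). The ranges of both genes overlapped between groups. Psmd14, the deubiquitinase of the lid, was at 29.3 ± 7.03, 34.2 ± 7.81, 41.2 ± 24.1 and 39 ± 9.4 CPM, and its log2 fold change of 0.47 ± 0.24 in overexpression (adjusted p = 0.48, edgeR) was 0.15 without overexpression replicate 1, at 99.7 CPM.

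The remaining named lid genes had negative values in the comparisons that named them. Psmd7 had a log2 fold change of -0.54 ± 0.3 after ELS (adjusted p = 0.494, edgeR) and -0.4 ± 0.3 in overexpression (adjusted p = 0.704), against a Standard GFP group in which replicate 5 was at 98.6 CPM and the next library at 27.5. Without that library the values were -0.04 and 0.11. Psmd13 had -0.62 ± 0.39 after ELS (adjusted p = 0.582, edgeR) and 0 without the same Standard GFP replicate 5, at 91.6 CPM. Psmd8 had -0.53 ± 0.32 in the libraries labelled knockdown (adjusted p = 0.923, edgeR), at 9.1 ± 4.24 against 13.3 ± 3 CPM.

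The chaperones were low in these libraries and spread widely. Psmd10, a base chaperone, had a log2 fold change of 1.07 ± 0.62 after ELS (adjusted p = 0.523, edgeR) and 1.24 ± 0.62 in overexpression (adjusted p = 0.469), from means of 2.03 ± 1.46 and 2.31 ± 1.69 CPM against 0.898 ± 0.691. Without ELS GFP replicate 3, at 5.51 CPM, the first value was 0.67. Psmd5, another base chaperone, had 1.15 ± 0.62 in overexpression (adjusted p = 0.514, edgeR), where replicate 1 was at 111 CPM and held 72.9% of the group. Its value was -0.52 without that library, 1.81 without Standard GFP replicate 6 and -0.52 in DESeq2, which replaced counts of this gene. The group medians were 5.99 CPM in Standard GFP and 6.09 in overexpression, which are almost equal.

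Psmg1, a core chaperone, was at 1.54 ± 1.74, 2.86 ± 2.81, 1.79 ± 1.25 and 1.4 ± 0.979 CPM, and its log2 fold change in the libraries labelled knockdown was -1.04 ± 0.63 (adjusted p = 0.929, edgeR), and -0.58 without ELS GFP replicate 6. Psmg2, its partner in core assembly, ran from 0 to 7.5 CPM in Standard GFP (median 2.07), from 0 to 2.03 in ELS GFP (median 1.37), from 0 to 4.33 in overexpression (median 1.61) and from 0 to 5.65 in the libraries labelled knockdown (median 2.26). Its ranges overlapped, with log2 fold changes of -1.35 ± 0.67 after ELS (adjusted p = 0.43, edgeR) and 1.08 ± 0.66 in the libraries labelled knockdown (adjusted p = 0.934).

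The other regulators bind the core in place of, or beside, the regulatory particle. Psme1 and Psme2 encode an activator known for its part in antigen presentation. Psme1 was at 59.2 ± 37.1, 43.6 ± 10.8, 48.5 ± 20 and 52.7 ± 23.8 CPM and Psme2 at 7.36 ± 3.72, 9.42 ± 4.03, 8.81 ± 2.93 and 8.7 ± 6.22. Psme4, a nuclear activator, was at 65.9 ± 12.6, 70.6 ± 14.7, 72.9 ± 34.8 and 78.7 ± 30.1 CPM. Psmf1, a regulator first described as an inhibitor, was at 5.65 ± 1.78, 5.57 ± 1.87, 6.72 ± 2.11 and 7.25 ± 1.27 CPM, with a log2 fold change of 0.37 ± 0.28 in the libraries labelled knockdown (adjusted p = 0.972, edgeR) and 7 of 8 of these above the ELS GFP median.

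Psme3, which encodes a nuclear activator of the core, had the smallest p of the members that were lower after ELS and in overexpression. In Standard GFP it ran from 7.05 to 176 CPM (median 14.4), in ELS GFP from 6.34 to 23.9 (median 17.9), in overexpression from 12.4 to 22.5 (median 16.3) and in the libraries labelled knockdown from 11.2 to 27.8 (median 16.9). Standard GFP had the lowest median but also the highest library, replicate 6, which held 63.6% of the group's CPM. The log2 fold changes were -1.06 ± 0.44 after ELS (p = 0.0202, adjusted p = 0.3, edgeR) and -1.04 ± 0.43 in overexpression (p = 0.0224, adjusted p = 0.345), and without that library they were 0.26 and 0.28. The log2 ratios of the group medians were 0.31 and 0.18, and DESeq2, which replaced counts of Psme3, gave 0.23 and 0.25.

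Of the genes that act around the proteasome, 0 passed the edgeR threshold in each comparison. The 10 other proteasome-associated proteins had 3, 3 and 1 members at an unadjusted p under 0.05 in the 3 comparisons, 30%, 30% and 10%, against the 11.7%, 10.9% and 6.18% of all tested genes. Of the 10 tested genes of the pathway of Nfe2l1, the transcription factor that raises proteasome genes, 1, 1 and 0 were at that level, 10%, 10% and 0%. For the 5 tested genes of ubiquitin and its activating enzymes the counts were 0, 1 and 0 (0%, 20% and 0%), and for the 7 shuttle proteins that carry ubiquitinated substrates 1, 2 and 0 (14.3%, 28.6% and 0%). These lists are small, so 1 gene sets much of a share. Nfe2l1 itself had log2 fold changes of -0.02 ± 0.27 after ELS, -0.05 ± 0.27 in overexpression and 0.5 ± 0.27 in the libraries labelled knockdown (edgeR adjusted p = 0.991, 0.974 and 0.862). The last value was 0.02 without replicate 7 of the libraries labelled knockdown, at 243 CPM against group medians of 56.1 there and 51.8 in ELS GFP. The tested Nfe2l1 pathway genes had medians of -0.076, -0.039 and 0.289.

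Pomp, the maturation factor of the core, had a log2 fold change of -1.26 ± 0.44 after ELS (adjusted p = 0.185, edgeR) and -1.2 ± 0.44 in overexpression (adjusted p = 0.263). Its Standard GFP level was 33.7 ± 56.8 CPM with a median of 14.5, and its ELS GFP level was 13.8 ± 3 with a median of 13.8, so the means lay far apart and the medians close together. Without Standard GFP replicate 1, at 173 CPM, the values were -0.03 and 0.03. Ubqln1, a shuttle protein, had -1.09 ± 0.3 (adjusted p = 0.12) and -1.03 ± 0.3 (adjusted p = 0.159) in edgeR, with medians of 43.3 CPM in Standard GFP, where the highest library was at 266, and 36.3 in ELS GFP. Without that library, Standard GFP replicate 6, the values were -0.44 and -0.38. Syvn1, a ubiquitin ligase of the endoplasmic reticulum, had -1.24 ± 0.47 (adjusted p = 0.248) and -1.19 ± 0.47 (adjusted p = 0.313), again in edgeR against a Standard GFP group with 1 library at 106 CPM and a median of 10.8. Without it, again replicate 6, they were -0.04 and 0.01. Usp14, a deubiquitinase that docks on the base, had -0.43 ± 0.32, -0.68 ± 0.32 and -0.26 ± 0.31 (edgeR adjusted p = 0.669, 0.417 and 0.998). Without Standard GFP replicate 6 the first 2 were -0.07 and -0.32, and the third ran from -0.54 without replicate 5 to -0.14 without replicate 3 of the libraries labelled knockdown.

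Of the other named genes, the adaptor Ecpas had -0.5 ± 0.19 (adjusted p = 0.229, edgeR) and the shuttle gene Ubqln4 0.73 ± 0.37 (adjusted p = 0.45) after ELS. Ecpas was at -0.32 without Standard GFP replicate 6, and Ubqln4 at 0.1 without ELS GFP replicate 2, whose level was 110 CPM against a group median of 20.5. In overexpression Akirin2, which brings proteasomes into the nucleus, had 0.73 ± 0.3 (adjusted p = 0.336, edgeR), the shuttle gene Rad23b 0.7 ± 0.29 (adjusted p = 0.327) and Uba1, the main ubiquitin-activating enzyme, 0.5 ± 0.23 (adjusted p = 0.422). All 3 had their highest level in overexpression replicate 1, and without it the values were 0.3 for Akirin2, 0.27 for Rad23b and 0.19 for Uba1. In the libraries labelled knockdown the ligase Ube3c had -0.8 ± 0.3 (adjusted p = 0.578, edgeR), with medians of 46.8 CPM there and 50.3 in ELS GFP, where 1 library, replicate 2, was at 287, and -0.16 without it. Nfe2l2, a relative of Nfe2l1, had 0.71 ± 0.39 (adjusted p = 0.876), and 0.46 without replicate 8 of the libraries labelled knockdown, and the activating enzyme Uba6 -0.4 ± 0.28 (adjusted p = 0.959).

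H3K79me2 lies over the first part of transcribed genes, and most proteasome genes carried peaks of it. The deposited lists hold 117819 distinct peaks for Standard and 106374 for ELS, 1 list a group, so differences between the lists have no replicate check. Peaks were counted for a gene where the list named it at its promoter, within 3 kb of the start of any of its transcripts, or in its body. A peak was found at 36 of 50 members (72%) in Standard and 35 (70%) in ELS. Among tested members the shares were 80% and 77.8%, against 57.0% and 52.8% of the 13988 symbols of tested genes. Genes that the lists do not name were counted as having no peak. All members with a peak had at least 1 within 3 kb of an annotated start.

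Genes with more RNA had peaks more often, from 23.9% of the lowest to 83.6% of the highest of 5 equal classes by average level in Standard, so shares were also taken within these classes. In the middle class 16 of 18 members had a Standard peak (88.9%) against 60.0% of all genes, and in the next higher class 12 of 12 against 73.8%. In the ELS list the same 2 classes had 88.9% and 100% of members against 54.6% and 70.1%. The second lowest class had 66.7% of 6 members in both lists, against 43.5% in Standard and 38.4% in ELS. The lowest and the highest class had shares below those of all genes: 20% of 5 members against 23.9% and 75% of 4 against 83.6% in Standard, and 0% against 20.0% and 75% against 80.9% in ELS. The respiratory chain genes had peaks at 82.4% in Standard and 81.1% in ELS, and the cytosolic ribosomal protein genes at 63.0% and 46.6%. These shares are descriptions of 1 list each.

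By role the peaks were unevenly placed. All 17 genes of the base and lid had a peak in both lists, as did 7 of 8 alpha subunits, the exception being Psma8 of the testis. Of the 7 constitutive beta subunits 6 had a peak in Standard and 5 in ELS. The 4 immune and thymic beta subunits and the 4 core chaperones had none in either list, Psmb9 among them. Peaks were found at 2 of 3 base chaperones, all but Psmd10, and at 4 of 6 other regulators, all but Psme1 and Psme2b. Psmb6 also had none. The members with a Standard peak spanned a median of 13.3 kb and the 14 without one a median of 3.77 kb. Among all tested genes the medians were 33.3 and 24.8 kb. These sets are unlike: the 14 include the 5 untested members, which span from 1066 to 4247 bp and lower the members' median.

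Psmb5 was the one member with a peak in a single list. Its Standard peak at chr14:54617527-54617778, in the first part of the gene, had a fold enrichment of 1.72 and a q-value of 0.0024, both the authors' own values, and it is also annotated to the microRNA gene Mir686. The lowest fold in the Standard list was 1.29, so the peak was a low one. The missing ELS counterpart shows only that no peak passed the caller there.

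The peaks lay just downstream of the start. The nearest peak edge was downstream of the RefSeq start in 34 of 36 members in Standard, with a median distance of 170 bp over the 36, and in 34 of 35 in ELS, with a median of 216 bp over the 35. The Standard peak of Psme3, chr11:101316183-101317722, lay over the start, and its ELS peak, chr11:101316305-101317491, began after it. The peak of Psme2, chr14:55591845-55592761 in Standard, lay wholly upstream and is annotated to its neighbour Rnf31 as well, so none of it lay inside Psme2. Of the members' 192 Standard peaks 96.4% were centred downstream of the start, and of the 190 ELS peaks 96.3%. The lists assign a peak to a gene from 3 kb before the start to the end of the gene, which favours the downstream side.

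**Figure D4:**
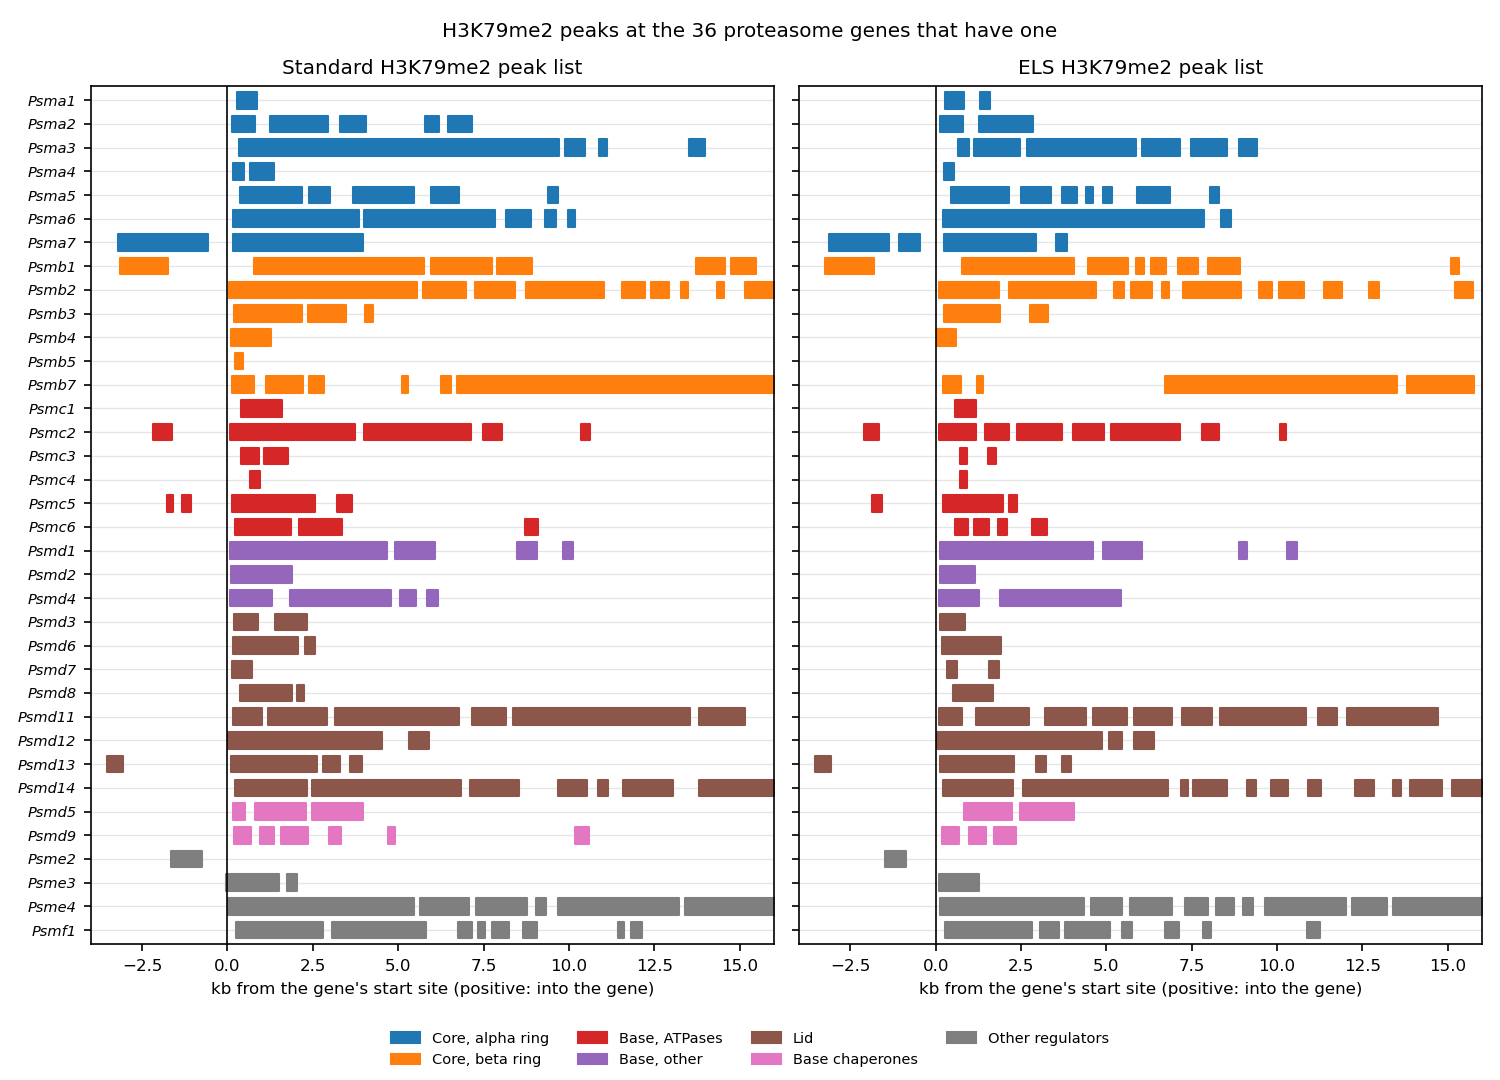
H3K79me2 peaks of Standard and ELS (bars) at the 36 proteasome genes with a peak (rows, by role), by distance in kb from the gene's start (x axis, -4 to 16 kb, downstream to the right). The window holds 127 of 192 Standard and 131 of 190 ELS peaks, and nearly all genes have their nearest peak just right of the start.

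The length covered by peaks followed gene length within the set, with a Spearman correlation of 0.8 over the 36 members and 0.59 over 7784 tested genes, both computed across genes of 1 list. Only peaks at the promoter or in the body of a gene were counted for it. A short gene thus has less room for cover, and part of each correlation is set by the counting. Psmd14 had the longest cover, 35372 bp in 35 Standard peaks and 26881 bp in 33 ELS peaks of a gene of 88683 bp. Psmb7 had 34681 and 25405 bp, Psme4 23949 and 21956, Psmd11 20247 and 15154, and Psmb2 13966 and 9896. Peaks covered 62% of the Psmb7 gene in Standard and 45.4% in ELS, and 21.9% and 20.1% of Psme4. The widest single peak of the set lay in Psmb7, at chr2:38627780-38637222 in Standard.

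At the short end, Psmc4 had 1 peak in each list, chr7:28049142-28049447 in Standard (305 bp) and chr7:28049163-28049369 in ELS (206 bp). Psmd7 had 570 and 594 bp, Psma1 579 and 852, and Psme2 916 and 605. Among the other genes followed above, Psmc1 had 1196 and 612 bp, Psme3 1845 and 1186, Psmd1 6983 and 6372, and Psmf1 7401 and 5750. The highest fold enrichment of any member's peak was at Psme4, 3.56 at chr11:30777418-30778849 in Standard and 2.97 in ELS, in the body of the gene. At Psme3 it was 3.34 and 2.73, and at Psma6 3.42 and 3.03.

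Cover was shorter in ELS than in Standard at 33 of the 36 members (91.7%), the exceptions being Psma1, Psmd12 and Psmd7. The same held for 93.9% of the 8079 tested genes with a peak in either list. Summed over members the cover fell from 243597 to 189247 bp, a ratio of 0.777 against 0.735 for all tested genes, and the median ratio per gene was 0.733 against 0.734. The members therefore lay at the level of all genes, in lists that differ in their number of peaks. The largest relative loss among members with a peak in both lists was at Psma4, from 1037 to 276 bp, a ratio of 0.266. Psmd12 had 5103 bp in Standard and 5802 in ELS, most of it in 1 peak at chr11:107479530-107484060 and chr11:107479578-107484390.

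**Figure D5:**
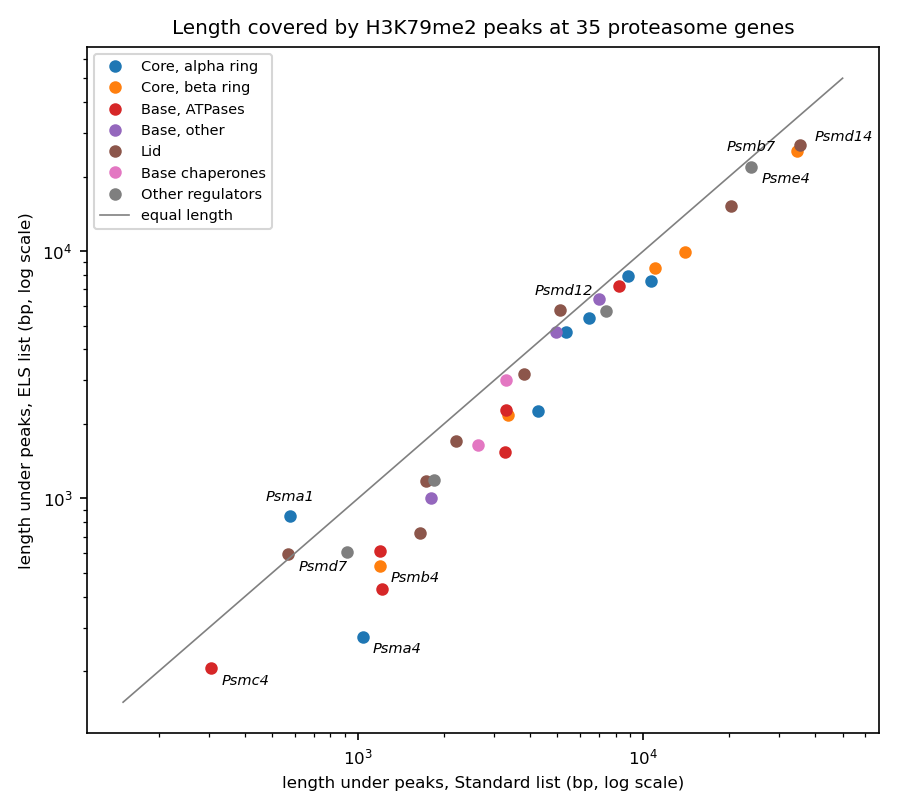
Length covered by H3K79me2 peaks in ELS (bp, y axis, log) against Standard (bp, x axis, log) at each proteasome gene with a peak in both lists. Of the genes with a peak, 33 of 36 are shorter in ELS, Psma4 the farthest below the line of equal length, and Psma1, Psmd12 and Psmd7 lie above it.

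Peak by peak, 132 of the 192 Standard peaks at members overlapped an ELS peak by at least 1 bp (68.8%), against 62.6% of all Standard peaks, and 176 of the 190 ELS peaks overlapped a Standard peak (92.6%), against 90.8% of all ELS peaks. With an overlap of 50% of both peaks the members' shares were 42.7% and 43.2%. The members' peaks had median widths of 716.5 bp in Standard and 558 in ELS, against 512 and 478 for all peaks. Their median fold enrichment was 2.04 and 1.97, against 1.96 and 1.92.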

How the data were processed

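The members and gene lists were chosen with earlier results of these data known. The authors deposited counts per gene (raw counts, 32 RNA libraries, 0 columns without a sample); the build mm10 and the names FastQC, HISAT2, featureCounts and DESeq2 stand in the submitters' processing notes, with no versions. The deposited counts are named after another counter, HTSeq, so which program made them is not known. Whether counting used strand was not given in the sources used here. The RefSeq spans of 14 members, introns included, overlap the span of another gene on either strand. How reads in the shared stretches were counted is not known. RNA came from whole nucleus accumbens and was read paired-end, per the labels. The authors also deposited 1 annotated H3K79me2 peak list per rearing group, in which each peak has a ratio, its fold enrichment, and a q-value, up to 0.0497 in Standard and 0.0489 in ELS. The peak caller, and whether libraries were pooled for calling, were not given in the sources used here. The ChIP and input libraries themselves were not analysed here.

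Symbols matched 52403 of 52636 gene IDs. Counts were tested with edgeR 4.0.16 in R 4.3.3 (TMM factors, filterByExpr, robust quasi-likelihood fit of all 4 groups together, 28 residual degrees of freedom, Benjamini-Hochberg over 14016 genes, threshold 0.05), giving a common biological coefficient of variation of 0.566. The script was tested on simulated data. CPM used TMM-adjusted totals. Alternatives were DESeq2 1.42.0, limma 3.58.1 (voom with quality weights), other scaling factors, no filter, 2 groups only, the number in the library title, and leaving out libraries. One alternative, without the 4 libraries that held over 50% of their group's CPM in more than 300 genes, was added after seeing the data. In each comparison up to 6 members per direction with the smallest p were named, beside 14 members always named. Of each list of other proteasome genes up to 2 per comparison were named, and always Nfe2l1, Pomp and Usp14. Peaks were compared with bedtools 2.31.1 at 1 bp of overlap, with starts and ends as the lists give them and lengths as their difference. Strands come from the lists and starts from RefSeq, or for 6 genes from the end of the gene on that strand. Promoter windows are RefSeq's (GRCm38.p6) and were not found for 8 members, and proteins and a genome were not used here. Tables and figures were made with Python 3.11.15, pandas 2.3.3, numpy 2.4.6 and matplotlib 3.10.9.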

Additional observations from a re-analysis of the deposited data

Results flagged for a closer look

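In 31 of the 180 sets of 8 libraries (45 members in 4 groups, 17.2%), the highest or lowest library was separated from the next by a larger part of the group's whole range than Dixon's 95% critical value for 8 values. Chance flags about 1 in 20 groups, and over all tested genes the share was 23.9%. By group the members' share was 28.9% in Standard GFP, 17.8% in ELS GFP, 13.3% in overexpression and 8.89% in the libraries labelled knockdown, against 30.4%, 22%, 26.1% and 17.3% of all genes. In 29 of the 31 sets the library was the highest, and 23 members were involved.

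Standard GFP replicate 6 was the highest for 6 members, at 201 CPM for Psmd4, 176 for Psme3, 144 for Psme1, 107 for Psmd2, 58.1 for Psmb7 and 28.5 for Psmd5. Overexpression replicate 1 was the highest for 6, at 153 CPM for Psme4, 111 for Psmd5, 99.7 for Psmd14, 86 for Psmc5, 52.6 for Psmd1 and 43.4 for Psmc6. Standard GFP replicate 5 was the highest for Psmd7 at 98.6 CPM, Psmd13 at 91.6, Psma4 at 47.6 and Psma3 at 29.9, and the lowest for Psmf1 at 1.76. ELS GFP replicate 2 was the highest for Psmd4 at 287 CPM, Psmb9 at 128 and Psmc4 at 37.5. These are the 4 libraries that often stood apart over all genes.

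The others were spread over more libraries. In Standard GFP they were Psma5 in replicate 4 at 18.6 CPM and Psmb8 in replicate 3 at 10.4. In ELS GFP they were Psma2 at 25.3 and Psmd14 at 50.7 in replicate 7, Psma5 at 17.8 and Psmd10 at 5.51 in replicate 3, and Psmd3 in replicate 6 at 29.2. In the libraries labelled knockdown they were Psmc4 at 19.4 and Psmd1 at 54.6 in replicate 5, Psmd13 at 35 in replicate 3 and, as the lowest of its group, Psmf1 at 4.45 in replicate 6.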

How the results depend on the processing

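The number of members past the threshold was 0 under all alternatives run in each comparison, except 1 (Psmb9) with DESeq2 after ELS. The median log2 fold change stayed between 0.032 and 0.191 after ELS and between 0.033 and 0.171 in overexpression, and ran from -0.121 to 0.055 in the libraries labelled knockdown. Over the 36 results for single genes and their 896 alternatives, 873 kept the direction and the side of the threshold, 22 turned the direction, in 8 results, and 1 passed the threshold. With DESeq2, Psme3 turned to 0.23 after ELS and 0.25 in overexpression, Psmd5 to -0.52 and Psmd4 to 0.07 in overexpression, all genes whose counts it replaced. With limma, Psme3 turned to 0.08 and 0.11, Psmd4 to 0.13 in overexpression, and in the libraries labelled knockdown Psmc1 to -0.01 and Psmb9 to 0.33. Without the libraries under 1 M counts, Psmd13 turned to 0.07 after ELS and Psmd7 to 0.06 in overexpression. Without the 4 libraries that often stood apart, Psme3 turned to 0.1 and 0.2, Psmd13 to 0.03, Psmd4 to 0.1 in overexpression and Psmb9 to 0.83 in the libraries labelled knockdown. Leaving out 1 library gave ranges of -1.21 to 0.26 and -1.19 to 0.28 for Psme3, -0.52 to 1.81 for Psmd5, -0.87 to 0.07 for Psmd4 and -0.5 to 0.11 for Psmd7 in overexpression, -0.72 to 0 for Psmd13 after ELS, and -1.2 to 0.83 for Psmb9 in the libraries labelled knockdown. Where no library is named beside a turn, the cause was not tested. The number of members at an unadjusted p under 0.05 ran from 0 to 6 after ELS, 1 to 4 in overexpression and 0 to 3 in the libraries labelled knockdown. Requiring 50% of both peaks lowered the shares of overlapping peaks to 42.7% in Standard and 43.2% in ELS. No paired analysis was possible because the labels tie no RNA library of a group to 1 library of another: the numbers 1 to 4 in the titles each recur within groups and served only as a factor, and there is 1 peak list a group. Depth limits the low members: in the library of 0.314 M counts 1 count is worth 2.07 CPM, above the Standard GFP mean of Psmg1.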

Other observations

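The members varied less between libraries of a group than the typical gene. Their median biological coefficient of variation was 0.427, against 0.527 for all 14016 tested genes, 0.421 for ribosomal protein genes and 0.505 for respiratory chain genes. It was 0.389 in the base and lid and 0.455 in the constitutive core with Psma8 counted in. Among genes of like level the gap was smaller: from the lowest to the highest of 5 classes by level, members had 0.766, 0.566, 0.419, 0.388 and 0.369 and all genes 0.821, 0.625, 0.494, 0.413 and 0.349, so in the highest class members did not vary less. Psmc1 at 0.279, Psmd1 at 0.305, Psmb1 at 0.312 and Psma7 at 0.323 were the steadiest, and Psma8 at 0.894, Psmb9 at 0.817, Psmd5 at 0.796 and Psmg2 at 0.793 the most variable.

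From library to library, genes of one complex were at most weakly correlated. Over the 990 pairs of tested members the median Pearson correlation of log2 CPM, after removing group means, was 0.04 across the 32 libraries, which share their depth within each library. It was 0.004 within the constitutive core with Psma8 counted in, and 0.077 within the base and lid. Among ribosomal protein genes it was 0.143, among respiratory chain genes 0.106 and among all tested genes 0.021. At these counts weak correlations are no finding.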
